A study of Mus musculus with 8 samples.

Results

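Oxidative phosphorylation is the final stage of respiration, in which the electron transport complexes I to IV of the inner mitochondrial membrane pump protons and complex V, the ATP synthase, uses the proton gradient to make ATP. Its parts are encoded by both genomes of the cell: most subunits by nuclear genes, and a small core set by the circular mitochondrial DNA, which also carries the rRNA and tRNA genes used to translate that set. Complex II (succinate dehydrogenase) is wholly nuclear, and nuclear assembly factors build the complexes without remaining in them. The genes described here were taken by symbol: those starting with mt-, Nduf followed by a, b, c, s or v, Uqcr, Cox4 to Cox8 or Atp5, and Sdha, Sdhb, Sdhc and Sdhd, without symbols that mark a pseudogene. This gave 134 of the 43629 genes in the table. Of these, 97 were nuclear and 37 were mitochondrial.

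Expression was measured by RNA sequencing in Eμ-Myc lymphoma cell lines #1.1 and #1.2 of C57BL/6 strain, after 2 h of treatment with JQ1 at 250 nM or with the vehicle DMSO. JQ1 occupies the acetyl-lysine pockets of BET proteins and releases these transcriptional cofactors from chromatin. The groups were line 1.2 with JQ1, line 1.2 with DMSO, line 1.1 with JQ1 and line 1.1 with DMSO, with 2 libraries in each and 8 in all. All groups carry the Eμ-Myc transgene, in which an immunoglobulin heavy chain enhancer drives Myc in B lineage cells, so no group without it was compared. Each line stands for itself alone, and nothing in the labels shows the libraries of a group to be separate cultures, so the tests below measure a spread that may be technical.

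Gene counts summed to between 10347453 and 13049877 per library. Levels are given as CPM, the reads of a gene scaled to a common library size after TMM normalisation, which leaves changes in total mRNA per cell out of view. B lineage identity was checked with 12 markers, which summed to 2880 to 3110 CPM in JQ1 libraries and 4280 to 4410 CPM in DMSO libraries. All but the pre-B cell genes Vpreb1 and Igll1 passed the expression filter. Averaged over the lines, all 10 that passed were called lower with JQ1 (median log2 change -0.65), against 31.3% of all genes tested. In line 1.2 all 10 were called lower, against 25%. In line 1.1, 9 were, against 26.1%, and the other had 0.08. Without drug, 2 were called higher in line 1.2 than in line 1.1, against 3.59%. The part of these marker differences in the results below was not tested. The 9 T cell markers summed to 0.266 to 0.993 CPM per library, the 10 myeloid markers to 0.621 to 2.26 CPM and the 7 erythroid markers to 0.182 to 0.669 CPM. In bulk RNA, fewer cells of a type and less RNA per cell cannot be told apart.

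The nuclear genes comprised 89 subunit genes (41 of complex I, 4 of complex II, 8 of complex III, 19 of complex IV and 17 of complex V) and 8 assembly factors of complex I, Ndufaf1 to Ndufaf8. The mitochondrial genes comprised 13 protein-coding genes (7 of complex I, 1 of complex III, 3 of complex IV and 2 of complex V), 2 rRNA genes and 22 tRNA genes. The expression filter passed 108 of them, 87 nuclear and 21 mitochondrial, and counts below are out of those that passed. The 26 that did not pass were 16 tRNA genes, with at most 6 reads in a library, and 10 nuclear genes, with at most 7. These 10 were Ndufa11b, Ndufa4l2, Ndufs6b, Cox4i2, Cox6a2, Cox6b2, Cox6c2, Cox7b2, Cox8b and Cox8c. Cox4i2, Cox7b2, Cox8b and Cox8c had no read in any library, which allows up to 0.228 to 0.286 CPM (3 reads in each library, with counting error alone).

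Mitochondrial transcripts were far more abundant than nuclear ones. The 13 protein-coding mitochondrial genes took 4.45 to 5.35% of all gene counts per library, and the nuclear subunit genes took 1.17 to 1.28%. Per kb of exon, mean levels over the 8 libraries ran from 680 CPM per kb for mt-Nd3 to 10100 CPM per kb for mt-Co1, the catalytic core of complex IV. Among nuclear subunit genes the highest were Atp5a1 with 454 and Atp5b with 439 CPM per kb, which encode the α and β subunits of the ATP synthase head, and then Cox8a with 420 CPM per kb. Every protein-coding mitochondrial gene therefore had a higher level per length than every nuclear gene of oxidative phosphorylation tested. Nuclear subunits had a median of 63.8 CPM per kb, and the 8 assembly factors ran from 3.52 to 15 CPM per kb.

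**Figure D1:**
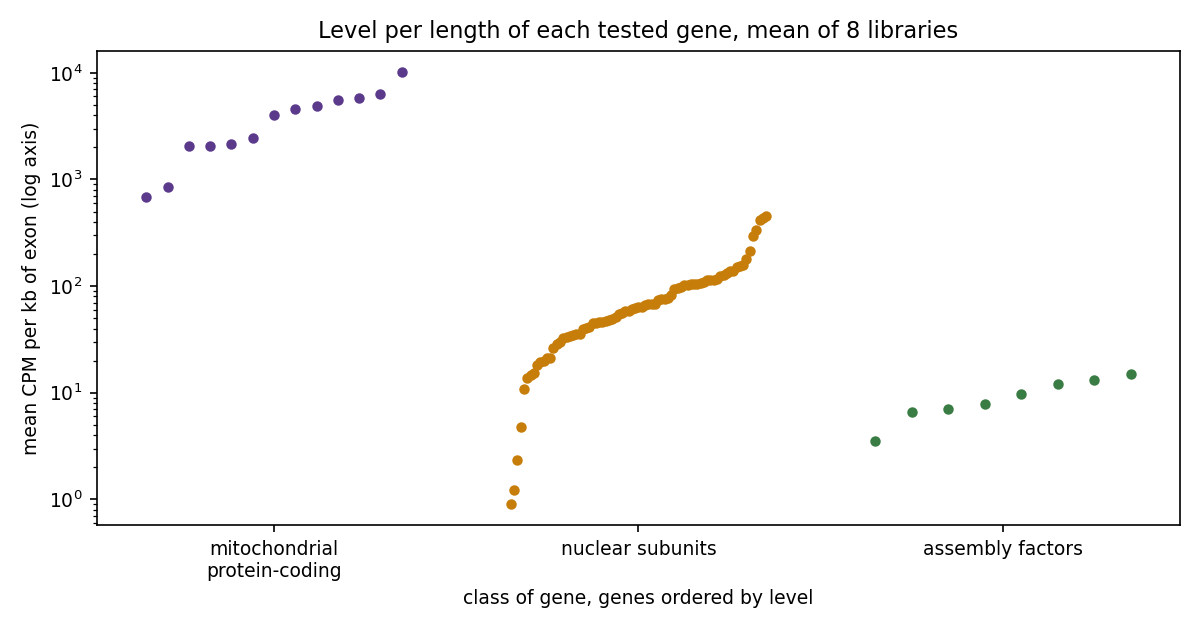
Level per length of each tested gene, as mean CPM per kb of exon over 8 libraries on a log axis, with genes ordered by level within each class. Each point is 1 gene. The mitochondrial protein-coding genes run from 680 to 10100, above all nuclear subunits, whose median is 63.8, and the assembly factors lie between 3.52 and 15.

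The mitochondrial genome is compact, and some adjoining genes share bases. The last bases of mt-Atp8 and the first of mt-Atp6, both subunits of the ATP synthase membrane part, are shared over 43 bases at chrM:7927-7969 on the + strand (GRCm38, sequence from GENCODE M21 transcripts). They are shown because a read within them fits both genes, and reads assigned to several genes were counted for none, with the start codon of mt-Atp6 in capitals.
mt-Atp8 and mt-Atp6 overlap: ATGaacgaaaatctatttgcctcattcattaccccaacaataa
mt-Nd4l and mt-Nd4 also share bases (chrM:10167-10173), and mt-Nd6, on the opposite strand, overlaps the end of mt-Nd5 (chrM:13552-13565). The strand setting of the counting is not given in the sources used here. Reads of mt-Nd6, or of tRNA genes on its strand such as mt-Tp, therefore cannot be told from those of opposite transcripts.

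The first comparison asked what JQ1 did to both sets in both lines. Averaged over the lines, nuclear subunit genes moved by little and in 1 direction: 35 of 79 rose, none fell, and the median log2 change was 0.08 (0.00 over all 12413 genes tested). The rises ran from 0.08 to 0.37 on the log2 scale, a fold of 1.06 to 1.29. Over all genes tested, the median size of the averaged log2 change, in either direction, was 0.252. JQ1 changed most of the transcriptome, with 30.7% of all genes tested called higher and 31.3% called lower, so a share of 44.3% of subunits called higher is to be read against 30.7%, and a share of 0% called lower against 31.3%. Under other settings 4 subunits were called lower, Ndufb4 and Sdhd with library totals (-0.16 and -0.11) or upper quartile scaling (-0.14 and -0.09) in place of TMM, and Ndufb4 with a stricter filter (-0.13). With 1 library left out, Ndufb4 was called without line 1.1 DMSO replicate 1 (-0.14) or line 1.2 DMSO replicate 2 (-0.15), and Sdhd (-0.11), Uqcrfs1 (-0.11) and Ndufs1 (-0.08) without line 1.1 DMSO replicate 2. Of the subunit genes, 1 (Ndufb4) had an unadjusted p under 0.05 for a fall by edgeR, and DESeq2 and limma-voom also called none lower. With both libraries of a group on 1 side in each line as the criterion, JQ1 exceeded DMSO for 31 of 79 subunit genes, against 28.8% of all genes tested, and lay below it for 1, against 29.8%.

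The rises were spread over all 5 complexes. In complex I, 14 of 38 subunits rose (36.8%), in complex IV 8 of 12 (66.7%) and in complex V 7 of 17 (41.2%). In complex II 2 of 4 rose and in complex III 4 of 8, which are few genes for a share. Over all genes tested 30.7% were called higher, and the differences from that share were not tested. Complex IV had the highest share among the larger complexes, and all 12 of its changes were positive. Summed over nuclear subunit genes, line 1.2 had 13000 and 12800 CPM with JQ1 and 12100 and 11900 CPM with DMSO. Line 1.1 had 12800 and 12700 CPM with JQ1 and 12100 and 11600 CPM with DMSO. JQ1 libraries exceeded DMSO libraries in each line without overlap.

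**Figure D2:**
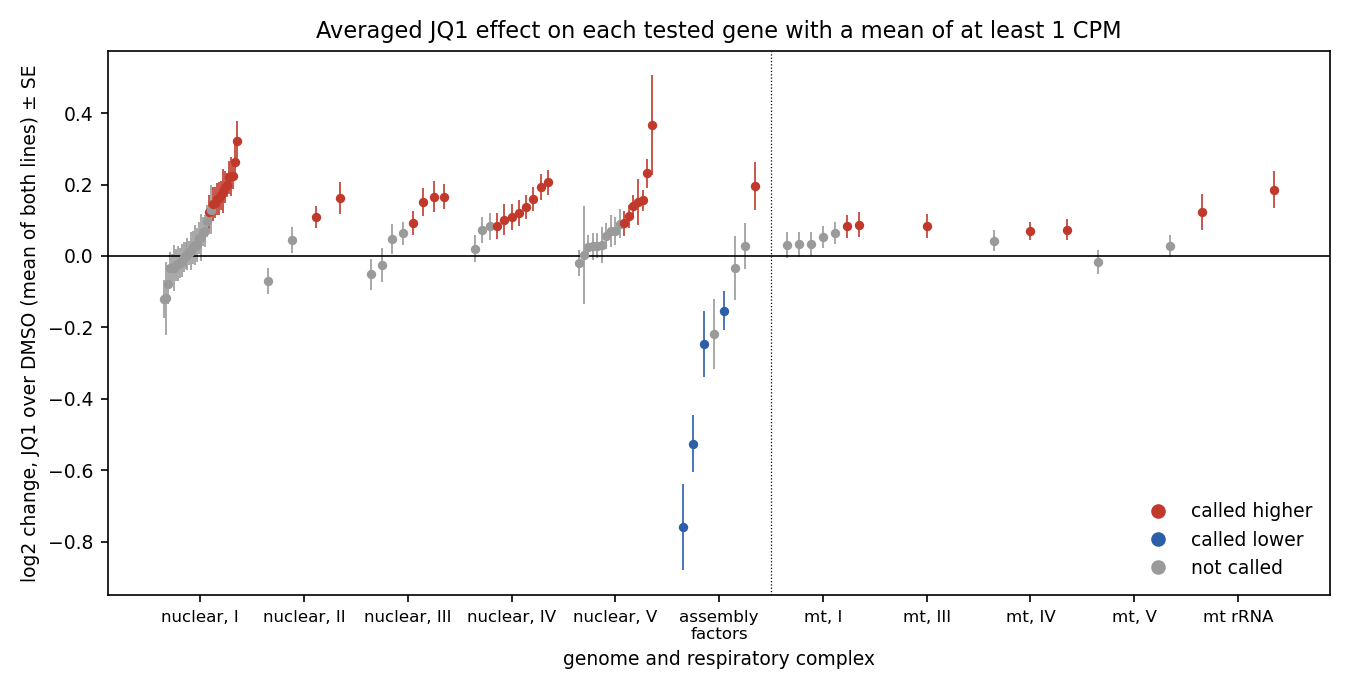
Log2 change with JQ1 over DMSO, averaged over both lines, ± SE, for each tested gene with a mean of at least 1 CPM, grouped by genome and complex (tRNA genes not shown). Red points were called higher and blue points called lower by edgeR at an adjusted p of 0.05. Of 79 subunits tested, 64 are above 0, 35 are called higher and 0 lower, and of 8 assembly factors 4 are called lower and 1 higher.

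In complex I, the NADH dehydrogenase, the largest rise was that of Ndufv3, a small subunit of the NADH-binding module (chr17:31520115-31531331, + strand). Ndufv3 had 51.8 and 45.4 CPM with JQ1 and 38.7 and 36.8 CPM with DMSO in line 1.2. In line 1.1 it had 47.7 and 48.6 CPM with JQ1 and 39.5 and 39.7 CPM with DMSO. All 4 JQ1 libraries were above all 4 DMSO libraries, with a log2 change of 0.32 ± 0.05 (SE, edgeR adjusted p = 1.18e-05). Ndufa11, an accessory subunit of the membrane arm (chr17:56717767-56722141, + strand), had 50.6 and 53.0 CPM with JQ1 and 40.7 and 40.5 CPM with DMSO in line 1.2. In line 1.1 Ndufa11 had 49.4 and 45.3 CPM with JQ1 and 40.9 and 43.4 CPM with DMSO. The groups did not overlap in either line, and the averaged change was 0.26 ± 0.05 (SE, edgeR adjusted p = 8.94e-05). Ndufb11, another membrane arm subunit, had 116 and 117 CPM with JQ1 and 104 CPM in both DMSO libraries of line 1.2, and 107 and 105 CPM with JQ1 and 85.5 and 89.5 CPM with DMSO in line 1.1 (log2 change 0.22 ± 0.04 SE, edgeR adjusted p = 1.51e-05). For Ndufb11 the lines also differed without drug, as described below.

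Further accessory subunits of complex I were among the 12 largest rises. These were Ndufa1 (0.22), Ndufa12 (0.22), Ndufa10 (0.20), Ndufb10 (0.19) and Ndufc1 (0.18), in averaged log2 change, each with both JQ1 libraries above both DMSO libraries in each line. Among core subunits of the matrix arm, Ndufv1, the flavin subunit, rose by 0.17. Ndufv2, Ndufs1, Ndufs3, Ndufs7 and Ndufs8 had changes between -0.03 and 0.07 that were not called. These core subunits were chosen for their role after their values were seen. Ndufa13 was called lower in line 1.1 alone (-0.16, edgeR adjusted p = 0.037) and had 0.11 in line 1.2, which was not called.

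In complex II, 2 of the 4 subunits rose. Sdhc, a membrane anchor, rose by 0.16 ± 0.04 (SE, edgeR adjusted p = 0.00252) and Sdha, the flavoprotein, by 0.11 ± 0.03 (SE, edgeR adjusted p = 0.00387). Sdha had 367 and 366 CPM with JQ1 and 334 and 328 CPM with DMSO in line 1.2, and 343 and 333 CPM with JQ1 and 321 and 323 CPM with DMSO in line 1.1. Sdhb, the iron-sulfur subunit, had 0.04 ± 0.04 and Sdhd -0.07 ± 0.04, and neither was called. Sdhd, the other anchor, was called lower under the scalings named above.

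In complex III, the cytochrome bc1 complex, Uqcr11, Uqcrh, Uqcrq and Uqcrc2 rose by 0.09 to 0.17, while Uqcrfs1, the Rieske iron-sulfur protein, had -0.05 and was not called. In complex IV, cytochrome c oxidase, the largest rise was that of Cox7a2l, a factor in the joining of complexes III and IV into supercomplexes. Cox7a2l had 205 and 196 CPM with JQ1 and 176 and 177 CPM with DMSO in line 1.2, and 197 and 186 CPM with JQ1 and 167 and 159 CPM with DMSO in line 1.1. The groups did not overlap, and the change was 0.21 ± 0.04 (SE, edgeR adjusted p = 1.96e-05). Cox5a followed with 0.19 ± 0.04 (SE, edgeR adjusted p = 4.03e-05).

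For complex IV subunits with paralogous isoforms, the widely expressed form was the abundant one. Per kb of exon, Cox4i1 had a mean of 213 CPM, Cox6a1 337 CPM, Cox6b1 297 CPM, Cox7a2 138 CPM, Cox7b 132 CPM and Cox8a 420 CPM. Their partners Cox4i2, Cox6a2, Cox6b2, Cox7b2, Cox8b and Cox8c failed the expression filter. Cox7a1, the heart and muscle isoform of Cox7a2, passed the filter with 1.22 CPM per kb. Its averaged log2 change of 0.61, the highest of the subunits tested, was not called. Of the 6 abundant isoforms, 5 rose, by 0.08 to 0.16, and Cox7b had 0.08 and was not called. Over all genes tested 30.7% were called higher, and 6 genes are few for a share. Ndufa4, which was first placed in complex I and is now placed in complex IV, was counted here in complex I by its symbol and rose by 0.16, and its hypoxia-linked paralog Ndufa4l2 had at most 1 read in a library.

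In complex V the 3 genes for the c subunit of the membrane rotor, which encode the same mature protein, did not all pass the threshold. Atp5g3 had 339 and 314 CPM with JQ1 and 280 and 289 CPM with DMSO in line 1.2, and 351 and 319 CPM with JQ1 and 299 and 260 CPM with DMSO in line 1.1. JQ1 was higher without overlap in each line, and Atp5g3 rose by 0.23 ± 0.04 (SE, edgeR adjusted p = 3.59e-05). Atp5g2 had 0.06 ± 0.04 and Atp5g1 -0.02 ± 0.04, and neither was called. The difference between the 3 genes was not tested. The abundant head subunits Atp5a1 and Atp5b, chosen for their level, rose by 0.16 and 0.14. Atp5s, counted with complex V by its symbol, had the highest change of any subunit called (0.37 ± 0.14), at a mean of 4.80 CPM.

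**Figure D3:**
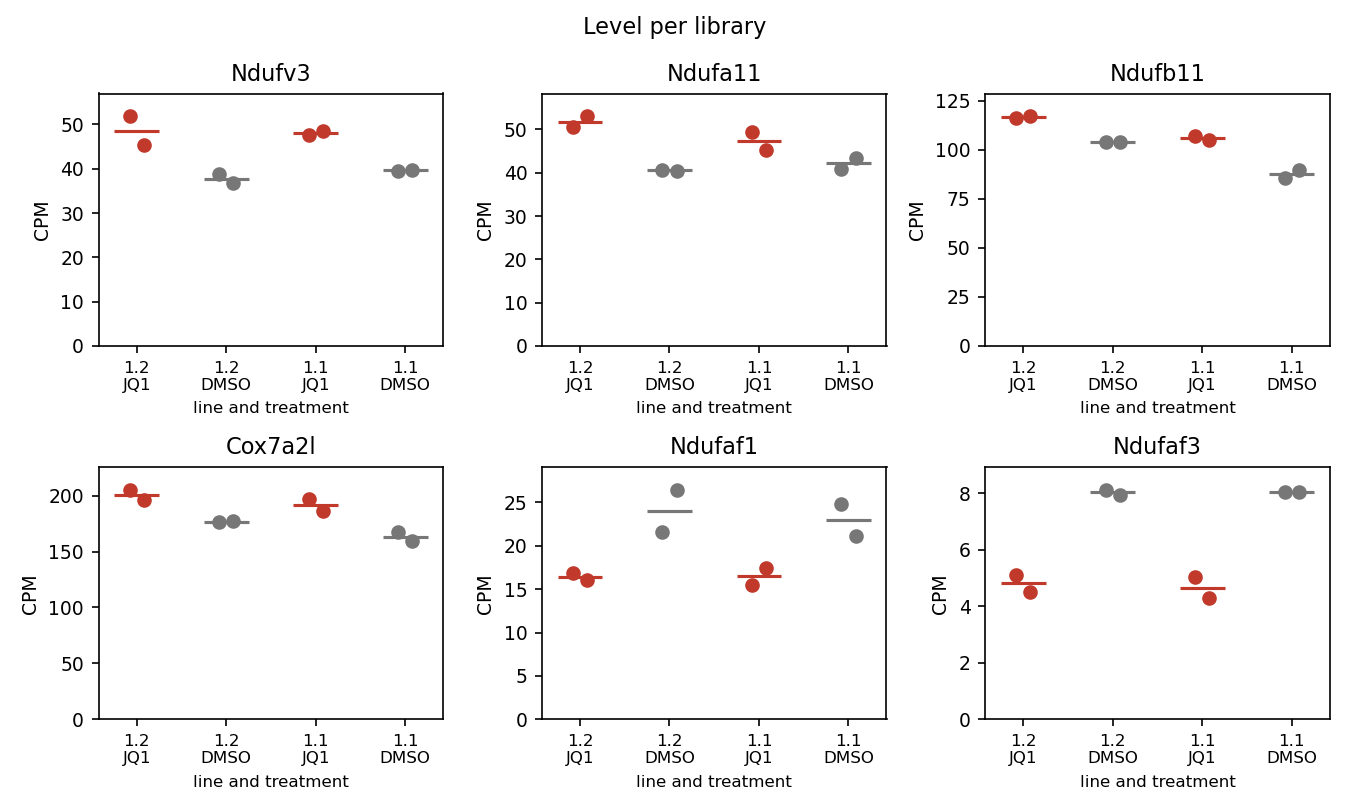
CPM in each library of 4 subunit genes that rose and 2 assembly factor genes that fell. Points are libraries and bars are means of 2, with JQ1 in red left of DMSO in grey for each line, line 1.2 first, and each axis starting at 0. JQ1 libraries lie above DMSO libraries of the same line for Ndufv3, Ndufa11, Ndufb11 and Cox7a2l, and below them for Ndufaf1 and Ndufaf3.

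Of the 8 Ndufaf assembly factors, which hold the modules of complex I during construction, 4 fell and 1 rose, with a median log2 change of -0.19, against 31.3% of all genes tested called lower and 30.7% called higher. Ndufaf3, which with Ndufaf4 assembles the ubiquinone-binding module (chr9:108565537-108567434, - strand), had the largest fall. It had 5.11 and 4.52 CPM with JQ1 and 8.12 and 7.95 CPM with DMSO in line 1.2, and 5.04 and 4.29 CPM with JQ1 and 8.05 and 8.03 CPM with DMSO in line 1.1. The groups were far apart in both lines, with a log2 change of -0.76 ± 0.12 (SE, edgeR adjusted p = 6.33e-06), a fold of 0.591. Ndufaf1, a factor for the membrane arm (chr2:119655446-119662827, - strand), had 16.8 and 16.0 CPM with JQ1 and 21.6 and 26.4 CPM with DMSO in line 1.2. In line 1.1 Ndufaf1 had 15.5 and 17.4 CPM with JQ1 and 24.8 and 21.1 CPM with DMSO, again without overlap, and its log2 change was -0.53 ± 0.08 (SE, edgeR adjusted p = 4.11e-06).

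Ndufaf6 (-0.25) and Ndufaf4 (-0.15) were the other 2 that fell, and Ndufaf2, a late factor related in sequence to Ndufa12, rose by 0.20. Ndufaf5, Ndufaf7 and Ndufaf8 were not called, with -0.03, 0.03 and -0.22. These factors were of low level, from 6.39 to 58.7 mean CPM, so their SE of 0.05 to 0.12 was above the median of 0.04 for subunits. The 4 falls among nuclear genes became 8 without line 1.1 DMSO replicate 2, 2 without line 1.2 JQ1 replicate 1 and 2 by DESeq2, and the rise of Ndufaf2 was not called without line 1.1 JQ1 replicate 1 (0.14, edgeR adjusted p = 0.118). Among complex I assembly factors whose names do not start with Nduf, 7 of 11 fell and 1 rose, against 31.3% and 30.7% of all genes tested. The 4 with the smallest p all fell: Tmem186 by 0.98, Dmac1 by 0.29, Aifm1 by 0.23 and Foxred1 by 0.22 on the log2 scale. Of the assembly factors of complexes II to V, 11 of 33 fell (33.3%) and 8 rose (24.2%), near those shares. They included Atpaf1, which assembles the ATP synthase head, at -0.66, Uqcc1 of complex III at -0.57, the heme synthesis enzyme Cox10 at -0.43, and Coa7 of complex IV, which rose by 0.67.

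Promoter sequence was examined for the subunits that rose and the assembly factors that fell. RefSeq promoter windows (GRCm38.p6, 250 bases before to 50 after the start) matched 76 of the 97 nuclear genes. The 75 bases before the start are shown for the 3 largest risers and the 2 fallers, among genes of at least 5 CPM whose JQ1 and DMSO libraries did not overlap in either line, whose stretch holds no annotated exon and whose start lies within 100 bases of that in GENCODE. Capitals mark letters of any of 5 motifs searched on both strands: E-box CACGTG, NRF1 GCATGCGC, ETS CCGGAAG, YY1 AAGATGGC and GC box GGGCGG.
Ndufv3 (rose, chr17:31520040-31520114, + strand): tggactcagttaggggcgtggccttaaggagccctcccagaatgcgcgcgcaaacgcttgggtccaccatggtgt
Ndufa11 (rose, chr17:56717687-56717761, + strand): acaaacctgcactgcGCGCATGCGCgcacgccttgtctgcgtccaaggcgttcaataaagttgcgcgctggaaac
Atp5g3 (rose, chr2:73911327-73911401, - strand): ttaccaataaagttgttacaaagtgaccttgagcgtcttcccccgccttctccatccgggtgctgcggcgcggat
Ndufaf3 (fell, chr9:108567437-108567511, - strand): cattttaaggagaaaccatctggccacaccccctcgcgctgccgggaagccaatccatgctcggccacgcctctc
Ndufaf1 (fell, chr2:119662835-119662909, - strand): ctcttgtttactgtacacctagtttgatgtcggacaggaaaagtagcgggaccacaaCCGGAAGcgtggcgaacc
Ndufa11 held the NRF1 letters on both strands, overlapping each other, and Ndufaf1 held the ETS letters, while the other 3 stretches held none of the 5. Over the whole 300-base windows, NRF1 letters were in 12 of 73 windows of nuclear genes tested (16.4%), against 5.99% of 8648 windows of all genes tested and 3.52% of all 19230 windows. YY1 letters were in 13.7%, against 5.47% and 3.17%. ETS letters were in 23.3%, against 21% and 11.5%, E-box letters in 8.22%, against 10.8% and 7.88%, and GC box letters in 45.2%, against 65.9% and 45.2%. Subunits called higher and subunits not called had NRF1 letters in 4 of 27 and 6 of 39 windows, E-box letters in 4 and 2, ETS letters in 6 and 9, YY1 letters in 2 and 7 and GC box letters in 13 and 14. Of 7 assembly factor windows, 6 held GC box letters, 2 NRF1 letters, 2 ETS letters, 1 YY1 letters and 0 E-box letters. These differences were not tested. The only overlap of 2 different motifs was of ETS and GC box letters in 1 window. A match of letters is a description of the window and not a site shown to be bound.

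Mitochondrial genes were next read in the same fits. Averaged over the lines, 7 of 21 rose (33.3%) and 0 fell, against 30.7% of all genes tested called higher and 31.3% lower. The share called higher was thus near that of all genes. Of the 13 protein-coding genes 5 rose (38.5%), by 0.07 to 0.09, against a median of 0.16 for nuclear subunits that rose. The 7 were mt-Nd4l (0.09), mt-Cytb (0.08), mt-Nd5 (0.08), mt-Co3 (0.07) and mt-Co1 (0.07), with edgeR adjusted p between 0.0222 and 0.0361, and both rRNA genes. No mitochondrial gene had an unadjusted p under 0.05 for a fall by edgeR, and DESeq2 and limma-voom called none lower. The median over the 13 protein-coding genes was 0.05, against 0.00 over all genes tested. Without 1 library the count of 7 became 1 (line 1.1 JQ1 replicate 2), 2 (line 1.2 DMSO replicate 2) or 0 (line 1.2 JQ1 replicate 2), and with library totals in place of TMM it was 1.

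Within the lines the mitochondrial protein-coding genes differed in the sign of the median, but the sign in line 1.2 depended on 1 library. In line 1.2, 0 of 13 rose and 2 fell (mt-Nd3 and mt-Atp8), with a median of -0.04, while in line 1.1, 8 of 13 rose and none fell, with a median of 0.12. The line 1.2 median became 0.02 without its JQ1 replicate 1 and -0.08 without its JQ1 replicate 2. That of line 1.1 ran from 0.07 to 0.15 with any 1 library left out. The background was 24.4% of all genes called higher and 25% lower in line 1.2, and 24.9% called higher and 26.1% lower in line 1.1. In neither direction with a count of 0 did edgeR give an unadjusted p under 0.05 or DESeq2 or limma-voom a call. JQ1 libraries exceeded DMSO libraries without overlap for 1 of 13 genes (mt-Nd5) in line 1.2, against 37.2% of all genes, and lay below them for 3 (mt-Atp8, mt-Nd3 and mt-Nd4l), against 38%. In line 1.1 they exceeded DMSO libraries for 12 of 13, mt-Atp8 being the exception, against 36.7% of all genes. Over the 21 mitochondrial genes, the 10 called higher in line 1.1 became 6 without its DMSO replicate 1, 15 without its DMSO replicate 2 and 4 without its JQ1 replicate 2. The 3 called lower in line 1.2 became 1 without its DMSO replicate 1 and 0 without its DMSO replicate 2, without its JQ1 replicate 1 or by DESeq2.

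**Figure D4:**
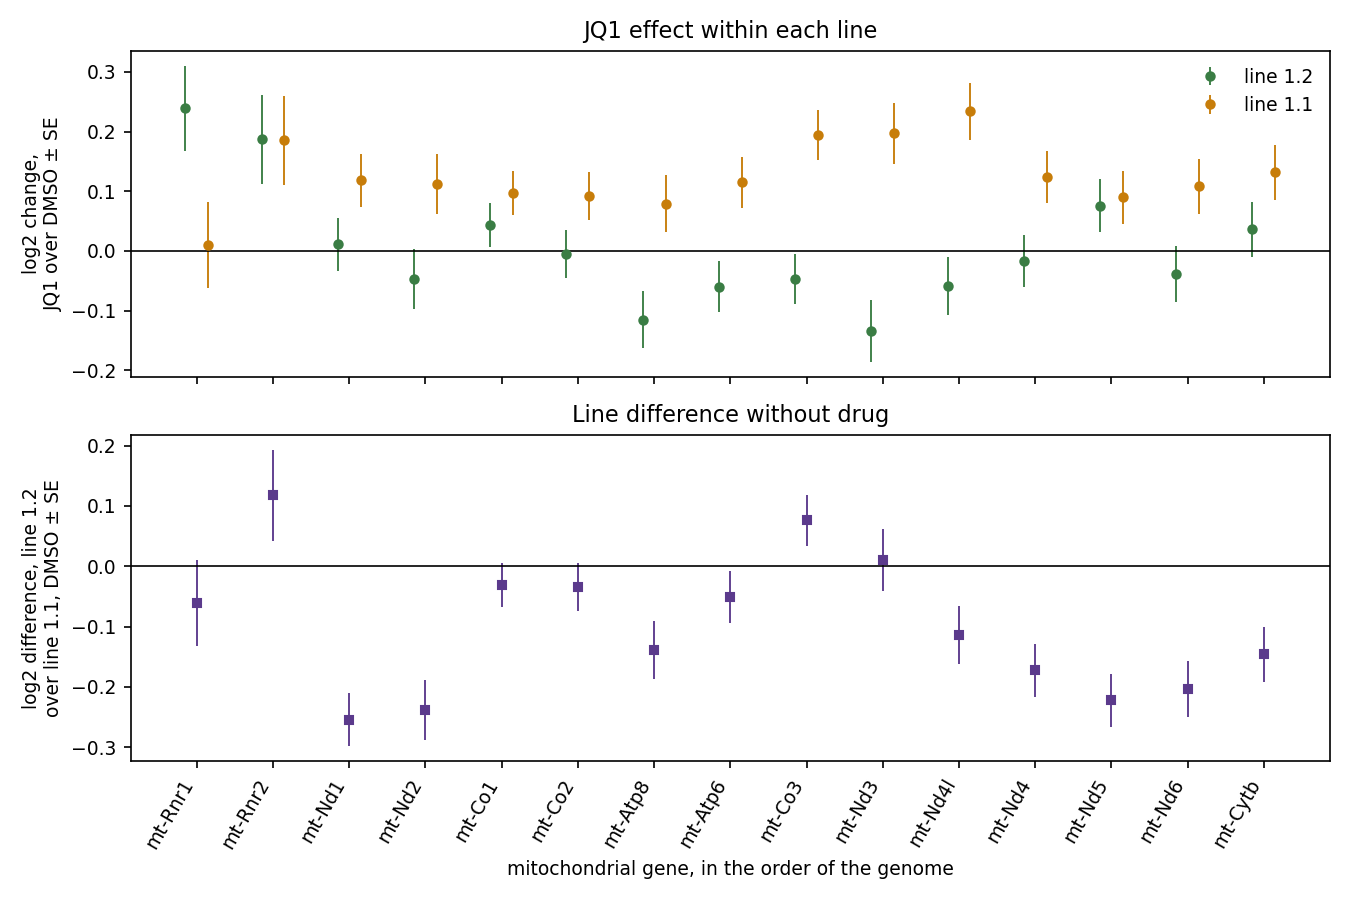
Mitochondrial rRNA and protein-coding genes in genome order. The upper panel gives the log2 change with JQ1 over DMSO ± SE in line 1.2 (green) and line 1.1 (orange), and the lower panel the log2 difference of line 1.2 over line 1.1 in DMSO ± SE. In the upper panel the 13 protein-coding genes are all above 0 in line 1.1 and 4 are above 0 in line 1.2, and in the lower panel mt-Nd1, mt-Nd2, mt-Nd4, mt-Nd5 and mt-Nd6 are called lower.

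mt-Nd3, a core membrane subunit of complex I, had 207 and 220 CPM with JQ1 and 236 and 233 CPM with DMSO in line 1.2. In line 1.1 it had 267 and 266 CPM with JQ1 and 244 and 220 CPM with DMSO. JQ1 was below DMSO in line 1.2 (log2 -0.13 ± 0.05) and above it in line 1.1 (0.20 ± 0.05), each called by edgeR (adjusted p = 0.0365 and 0.00259). mt-Nd4l, its neighbour in complex I, had 221 and 227 CPM with JQ1 and 228 and 238 CPM with DMSO in line 1.2, and 296 and 297 CPM with JQ1 and 260 and 244 CPM with DMSO in line 1.1. The change of mt-Nd4l was -0.06 ± 0.05 in line 1.2, which was not called, and 0.23 ± 0.05 in line 1.1 (edgeR adjusted p = 0.000215). mt-Co3, a core subunit of complex IV, had 3010 and 3100 CPM with JQ1 and 3220 and 3100 CPM with DMSO in line 1.2, and 3400 and 3460 CPM with JQ1 and 3100 and 2890 CPM with DMSO in line 1.1. It was called in line 1.1 alone (0.19 ± 0.04, edgeR adjusted p = 0.000468).

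The difference of the JQ1 effects between the lines was tested as an interaction, line 1.2 minus line 1.1. It was negative for all 13 protein-coding mitochondrial genes, from -0.33 to -0.01 with a median of -0.15, and it was called for none of them, nor for any other of the 108 genes. Over all genes tested 0.0806% were called higher and 0.0322% lower. By edgeR, 8 of the 13 had an unadjusted p under 0.05, all negative, and DESeq2 and limma-voom called none. The 5 most negative values were those of mt-Atp8, mt-Atp6, mt-Co3, mt-Nd3 and mt-Nd4l, protein-coding genes that follow each other on the genome. The smallest adjusted p-values were those of mt-Nd3 (-0.33 ± 0.07, edgeR adjusted p = 0.0955), mt-Nd4l (-0.29 ± 0.07, adjusted p = 0.115) and mt-Co3 (-0.24 ± 0.06, adjusted p = 0.148). Mitochondrial genes are transcribed together as long precursors and were counted in the same libraries, so their shared sign is not 13 separate observations. Without line 1.1 DMSO replicate 1 the interaction was called for 4 mitochondrial genes in the negative direction and 1 in the positive, for 7 nuclear genes in the negative and 3 in the positive. Without line 1.1 DMSO replicate 2 it was called for 3 mitochondrial genes, all negative.

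Nuclear subunits were read in the same way. In line 1.2, 24 of 79 rose (30.4%) and 0 fell, against 24.4% of all genes called higher and 25% lower. In line 1.1, 26 rose (32.9%) and 1 fell, against 24.9% called higher and 26.1% lower. Medians were 0.09 in both lines. The genes called in both lines numbered 17, with 7 called in line 1.2 alone and 9 in line 1.1 alone. For the fall in line 1.2, 2 subunits had an unadjusted p under 0.05 by edgeR, and DESeq2 and limma-voom called none. The interaction of subunits had a median of -0.01 and an edgeR adjusted p of at least 0.413. In 4 nuclear subunits and 0 mitochondrial genes, JQ1 libraries were above DMSO in line 1.2 and below in line 1.1 without overlap, against 0.991% of all genes. In 3 mitochondrial genes (mt-Nd3, mt-Nd4l and the tRNA gene mt-Tp) and 0 nuclear ones the pattern was the reverse, against 1.14%.

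Precision was uneven. In line 1.1 with DMSO, replicate 2 was below replicate 1 for 56 of 79 subunits, with a median of -0.08 and an SD of 0.14 on the log2 scale. The same SD was 0.12 in line 1.2 with JQ1, 0.08 in line 1.2 with DMSO and 0.09 in line 1.1 with JQ1. Of nuclear genes, 27 rose in line 1.1, and this became 17 without line 1.1 DMSO replicate 2, 10 without line 1.1 JQ1 replicate 1 and 17 without line 1.1 JQ1 replicate 2. In line 1.2, 24 rose, and this became 9 without DMSO replicate 2, 12 without JQ1 replicate 1 and 14 without JQ1 replicate 2. The averaged count of 36 nuclear genes higher stayed between 28 and 42 when any 1 library was left out. No subunit change exceeded a fold of 1.2 in edgeR's test against that fold, and of the assembly factors Ndufaf3 and Ndufaf1 did. For the averaged effect, that test called 1697 of all 12413 genes higher and 2089 lower. The higher share of subunits called without a fold limit was therefore one of small changes.

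The mitochondrial rRNA genes rose averaged over the lines, and the library highest for both was also the highest for a nuclear transcript. mt-Rnr2, the large rRNA, had 611 and 799 CPM with JQ1 and 632 and 607 CPM with DMSO in line 1.2, and 627 and 671 CPM with JQ1 and 543 and 599 CPM with DMSO in line 1.1. mt-Rnr1, the small rRNA, had 369 and 447 CPM with JQ1 and 351 and 340 CPM with DMSO in line 1.2, and 346 and 380 CPM with JQ1 and 331 and 391 CPM with DMSO in line 1.1. For both genes the highest library was line 1.2 JQ1 replicate 2. That library also had the most reads of Gm42418, a transcript that overlaps nuclear rRNA, with 2640 CPM, against 1300 CPM in the other JQ1 library of the line, 383 and 341 CPM in its DMSO libraries, 475 and 493 CPM with JQ1 and 361 and 977 CPM with DMSO in line 1.1. The averaged log2 changes of 0.19 ± 0.05 for mt-Rnr2 and 0.12 ± 0.05 for mt-Rnr1 (edgeR adjusted p = 0.00395 and 0.0363) became -0.02 and -0.09 in a fit that included the Gm42418 level, and 0.08 and 0.05 without that library, and were no longer called. The Gm42418 level was itself higher with JQ1 than with DMSO in line 1.2. The fit that included it therefore cannot tell that level and JQ1 apart in this line. Over all genes tested, that fit called 1383 higher and 1525 lower in line 1.2, against 3031 and 3105 without the covariate. In that fit 36 nuclear genes were called higher and 2 lower in the averaged effect, and 14 higher and 0 lower in line 1.2.

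Of 22 tRNA genes, 6 passed the filter, and mt-Tp, the proline tRNA gene on the strand opposite to most genes (chrM:15356-15422), held most of their reads. It had 57.7 and 60.6 CPM with JQ1 and 66.9 and 69.0 CPM with DMSO in line 1.2, and 76.4 and 80.4 CPM with JQ1 and 62.7 and 69.7 CPM with DMSO in line 1.1. Read with the limit of strand given for mt-Nd6, which also holds for mt-Tp, its count fell in line 1.2 (-0.20, edgeR adjusted p = 0.015) and rose in line 1.1 (0.25, edgeR adjusted p = 0.00233), and its interaction of -0.45 ± 0.09 had an edgeR adjusted p of 0.0518. The other 5 had 1.08 to 7.72 mean CPM and none was called in any comparison. Of these, mt-Ta, mt-Tc, mt-Tn and mt-Ty lie on the same strand as mt-Tp, so the limit of strand holds for them too.

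Relative to each other, the 2 genomes were compared by the log2 ratio of summed nuclear subunit to summed mitochondrial protein-coding counts. Summed mitochondrial levels were 45100 and 47600 CPM with JQ1 and 47000 and 45100 CPM with DMSO in line 1.2, and 52500 and 54600 CPM with JQ1 and 49000 and 50000 CPM with DMSO in line 1.1. JQ1 and DMSO overlapped in line 1.2 and did not in line 1.1. The log2 ratio was -1.84 ± 0.07 with JQ1 and -1.94 ± 0.03 with DMSO in line 1.2, and -2.07 ± 0.05 with JQ1 and -2.06 ± 0.07 with DMSO in line 1.1 (SD, n = 2). The JQ1 difference of 0.09 in line 1.2 exceeded the pooled SD of 0.06, and that of -0.01 in line 1.1 did not. With 2 libraries against 2 no exact permutation test could pass 0.05, so none is given. Line 1.2 exceeded line 1.1 in this ratio by 0.13 in DMSO and 0.23 in JQ1.

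**Figure D5:**
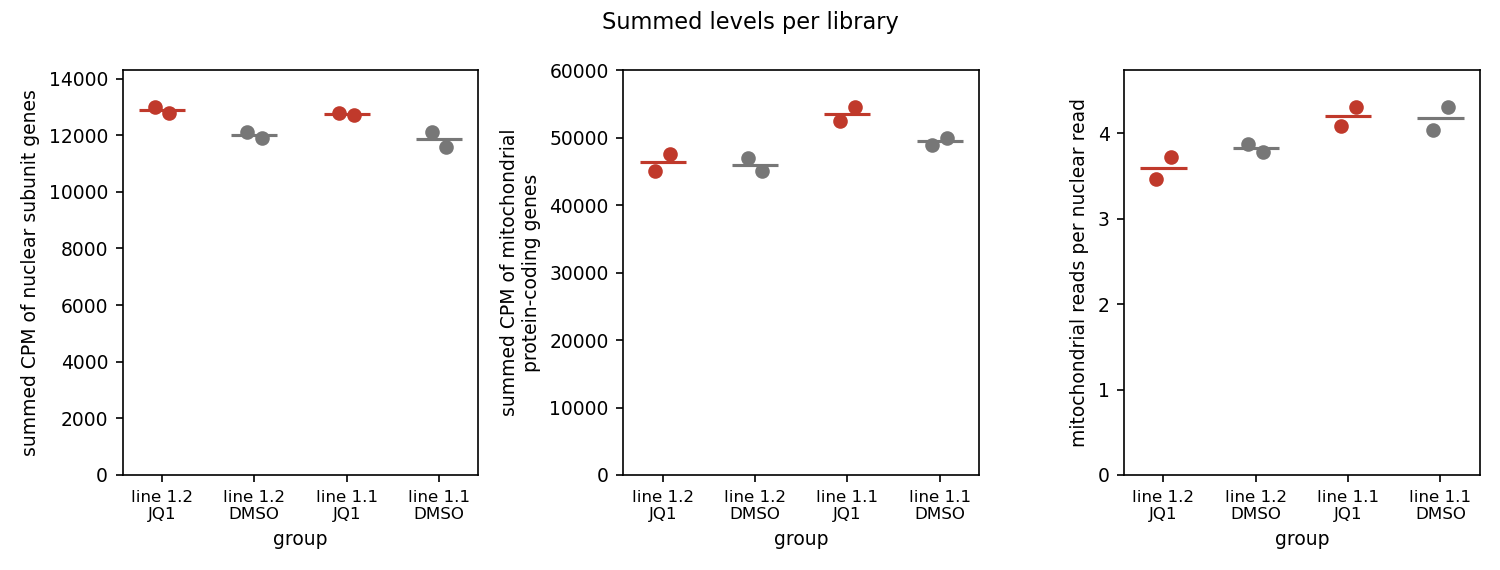
Summed CPM of nuclear subunit genes (left), summed CPM of the 13 mitochondrial protein-coding genes (middle) and mitochondrial reads per nuclear read (right) in each library. Points are libraries and bars are means of 2, JQ1 in red left of DMSO in grey, line 1.2 first, with axes from 0. Nuclear sums are higher with JQ1 in both lines, and mitochondrial sums are higher with JQ1 in line 1.1 (52500 and 54600 against 49000 and 50000) but overlap in line 1.2.

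The last comparison asked how the lines differed without drug. In DMSO, 5 of the 7 mitochondrial genes of complex I were lower in line 1.2 than in line 1.1. Of 21 mitochondrial genes, 5 were lower and none higher, against 3.17% and 3.59% of all genes tested, and they were mt-Nd1 (-0.25), mt-Nd2 (-0.24), mt-Nd5 (-0.22), mt-Nd6 (-0.20) and mt-Nd4 (-0.17), in log2 difference. mt-Nd1 had 5110 and 4850 CPM in line 1.2 and 5850 and 6030 CPM in line 1.1, which did not overlap (edgeR adjusted p = 0.000478). mt-Nd2 had 2360 and 2240 CPM in line 1.2 and 2650 and 2780 CPM in line 1.1 (edgeR adjusted p = 0.00367). The other complex I genes, mt-Nd4l and mt-Nd3, had -0.11 and 0.01 and were not called. Outside complex I, mt-Cytb had -0.15 (edgeR adjusted p = 0.055) and mt-Atp8 -0.14 (edgeR adjusted p = 0.0831), each without overlap between the lines, and mt-Atp6, mt-Co1, mt-Co2 and mt-Co3 had -0.05, -0.03, -0.03 and 0.08, and none was called. The difference between complexes was not tested. For a higher level in line 1.2, no mitochondrial gene had an unadjusted p under 0.05 by edgeR, and DESeq2 and limma-voom called none.

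The lower level in line 1.2 extended to the treated cells. With JQ1, all 13 protein-coding genes were lower in both line 1.2 libraries than in both line 1.1 libraries, against 26.1% of all genes tested. With DMSO and JQ1 both as the criterion this held for 8 of 13, 6 of them of complex I, against 10.8% of all genes. As for the interaction, these genes share precursors and libraries and are not 13 separate observations. The line difference within JQ1 was not tested. The count of 5 became 1 without line 1.2 DMSO replicate 2 and 8 without line 1.1 DMSO replicate 1. This comparison and the interaction share the DMSO libraries.

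Few nuclear genes differed between the lines in DMSO: 4 of 87 were higher in line 1.2 and 0 lower, against 3.59% and 3.17% of all genes. They were Atp5e (0.27), the small ε subunit of the ATP synthase, Ndufb11 (0.25), Atp5g2 (0.21) and Cox6c (0.21). Ndufb11 is X-linked (chrX:20615326-20617619, - strand) and had 104 CPM in both line 1.2 DMSO libraries and 85.5 and 89.5 CPM in those of line 1.1 (edgeR adjusted p = 0.00464). For a lower level, 5 nuclear genes had an unadjusted p under 0.05 by edgeR, and DESeq2 and limma-voom called none. The 4 became 0 without line 1.2 DMSO replicate 1, 1 without line 1.2 DMSO replicate 2, 2 without line 1.1 DMSO replicate 2 and 11 without line 1.1 DMSO replicate 1. Line 1.2 libraries were above line 1.1 libraries with both treatments for 12 of 79 subunits, against 11.4% of all genes.

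Nuclear genes that maintain and express the mitochondrial genome were read last. Of 21 genes for mitochondrial DNA transcription and replication, 7 rose and 8 fell with JQ1 averaged over the lines, with the background of 30.7% and 31.3%. Mgme1, an exonuclease of mitochondrial DNA maintenance, fell by 1.14, and Dguok, which supplies purine nucleotides to mitochondria, rose by 0.89. Mgme1 had 12.8 and 12.9 CPM with JQ1 and 26.0 and 29.2 CPM with DMSO in line 1.2, and 12.5 and 11.5 CPM with JQ1 and 26.0 and 28.7 CPM with DMSO in line 1.1. The protease Lonp1 and the polymerase Polg rose by 0.32 and 0.27. Of 24 genes for mitochondrial RNA processing and stability, 5 rose and 9 fell. Fastkd2, an RNA-binding protein of mitochondrial RNA granules, fell by 0.81 and the exoribonuclease Pnpt1 by 0.31. The rRNA methyltransferase Nsun4 rose by 0.78 and Trmt10c, a subunit of mitochondrial RNase P, by 0.43.

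Of 15 nuclear regulators of respiratory genes, 4 rose and 4 fell, against 30.7% of all genes tested called higher and 31.3% lower. Gabpa, an ETS factor that acts on respiratory promoters, fell by 0.43, and Gabpb2, which encodes a partner subunit, fell by 0.23. Yy1 rose by 0.19, and Myc, whose count sums the transgene and the endogenous gene, rose by 0.62. The calls of Myc and Gabpa also passed the test against a fold of 1.2.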

How the data were processed

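RNA was isolated with a Nucleospin kit and sequenced from TruSeq RNA libraries, per the labels' protocols. The submitters' processing notes name GRCm38 (mm10) and the tools FastQC, cutadapt 1.7, Bowtie2, TopHat, HTSeq and limma. The annotation release and strand setting were not given in the sources used here. The deposited values are raw counts of reads per Ensembl gene. Reads assigned to no gene (12.3 to 14.4% of those in the table) and to several genes (1.54 to 1.67%) entered neither the library sizes nor the tests. Those assigned to no gene were 14.0 to 14.4% in JQ1 libraries and 12.3 to 13.1% in DMSO libraries, without overlap. The part of this difference in the results was not tested. Of the 43629 genes, 42462 matched a symbol. Positions and exon lengths are from GENCODE M21 on the same build.

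From the counts, edgeR 4.0.16 in R 4.3.3 tested 12413 genes that passed filterByExpr (minimum count 10, minimum total 15) after TMM scaling. Models of 4 group means over 8 libraries left 4 residual degrees of freedom. Contrasts were tested two-sided with the quasi-likelihood F test, with Benjamini-Hochberg adjustment over all genes and a threshold of 0.05. Each SE is derived from the F statistic. The fit was tested on simulated data in which few genes changed, with as many rises as falls. Those data could not show how the fit performs where most genes change, as they did here. Alternatives included DESeq2 1.42.0 and limma-voom (limma 3.58.1).

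Named genes were the mitochondrial protein-coding and rRNA genes, up to 12 nuclear members each way with the largest averaged change (at least 5 CPM, groups not overlapping in either line), the Sdh genes, isoform sets, called line differences, and up to 4 members of each other list with the smallest p. Others are named for a role, a level or a count of 5 or fewer, after their values were seen. The members and all lists were chosen with earlier results of these data known.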

Additional observations from a re-analysis of the deposited data

Results flagged for a closer look

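The JQ1 effect on Gm42418, a transcript that overlaps nuclear rRNA and is not an oxidative phosphorylation gene, differed between the lines in the test of the difference itself. The interaction, line 1.2 minus line 1.1, was 2.91 on the log2 scale (edgeR adjusted p = 0.000378). Its change was 2.45 in line 1.2 and -0.46 in line 1.1, with 1300 and 2640 CPM with JQ1 and 383 and 341 CPM with DMSO in line 1.2, and 475 and 493 CPM with JQ1 and 361 and 977 CPM with DMSO in line 1.1. JQ1 libraries were higher in line 1.2, and in line 1.1 the groups overlapped, DMSO replicate 2 being the highest library. Without that library the change in line 1.1 was 0.42. Beside it, mt-Rnr1 and mt-Rnr2 were highest in the same line 1.2 JQ1 library that was highest for Gm42418.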

How the results depend on the processing

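Counts are of members called, and where a count differs from the one reported the cause was not tested. For the averaged JQ1 effect (36 nuclear genes higher and 4 lower, 7 mitochondrial genes higher), upper quartile scaling gave 7 nuclear lower and 1 mitochondrial higher. Library totals gave 23 nuclear higher, 7 nuclear lower and 1 mitochondrial higher. DESeq2 gave 2 nuclear lower and 3 mitochondrial higher, a threshold of 0.01 gave 2 and 1, the Gm42418 covariate 2 and 2, and the test against a fold of 1.2 gave 0 nuclear higher, 2 nuclear lower and 0 mitochondrial higher. For line 1.2 (24 nuclear higher and 2 lower, 2 mitochondrial higher and 3 lower), upper quartile scaling gave 5 nuclear lower and 1 mitochondrial higher, and library totals 13 nuclear higher, 6 nuclear lower and 1 mitochondrial higher. DESeq2 gave 14 nuclear higher and 0 mitochondrial genes in either direction, limma-voom and the stricter filter (5 CPM in 2 libraries) each 1 mitochondrial higher, and the covariate 14 nuclear higher, 0 nuclear lower, 0 mitochondrial higher and 5 mitochondrial lower. A threshold of 0.01 gave 12 nuclear higher, 1 mitochondrial higher and 0 lower, and the fold of 1.2 gave 0 for all 3. For line 1.1 (27 nuclear and 10 mitochondrial higher), mitochondrial genes higher were 6 with upper quartile scaling and 4 with library totals, which gave 13 nuclear higher, and DESeq2 gave 15 nuclear higher. A threshold of 0.01 gave 12 nuclear and 4 mitochondrial higher, and the fold of 1.2 gave 0 of each. The interaction (0 called) had 1 mitochondrial gene lower with upper quartile scaling, library totals or the replicate block, and 4 with no filter. For line 1.2 over line 1.1 in DMSO (4 nuclear higher, 5 mitochondrial lower), nuclear genes higher were 0 by DESeq2, 1 at 0.01, 2 with the covariate and 0 against a fold of 1.2, which gave 0 mitochondrial lower, and the covariate gave 1 mitochondrial higher. Library totals moved the median of all genes by -0.04 and changed the averaged split of all genes to 3229 higher and 4349 lower, against 3809 and 3883.

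With 1 library left out at a time, the averaged effect had 28 to 42 nuclear higher, 2 to 8 nuclear lower and 0 to 9 mitochondrial higher. Line 1.2 had 9 to 30 and 2 to 7 nuclear genes and 0 to 2 and 0 to 3 mitochondrial genes higher and lower, and line 1.1 had 10 to 37 and 2 to 6 nuclear genes and 4 to 15 mitochondrial genes higher. The interaction had 0 to 3 and 0 to 7 nuclear genes and 0 to 1 and 0 to 4 mitochondrial genes higher and lower. The line difference had 0 to 11 and 0 to 3 nuclear genes and 0 to 1 and 1 to 8 mitochondrial genes higher and lower. A group left with 1 library was assumed to vary like the others. The log2 ratio differences moved by less than the SD between libraries under each alternative run. The ratio is of summed raw counts, so scaling, test and threshold cannot change it. Leaving out 1 of 2 libraries moves a group mean by less than the SD of that group. Small moves under these settings were therefore fixed in advance. In line 1.2 the ratio was -1.79 and -1.89 in the JQ1 libraries, and -1.95 and -1.92 in the DMSO libraries. With the replicate block, 38 nuclear and 7 mitochondrial genes were higher in the averaged effect, and replicate numbers did not pair the samples (correlations of -0.06 to 0.05 over 6 pairs of groups), so they are names only.

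Of the values of named genes, 9 were listed as turned in sign, 7386 as the same, 487 as no longer called and 102 as newly called. Small values that were not called could turn sign without being listed. The line 1.2 median of the 13 mitochondrial protein-coding genes went from -0.04 to 0.02 without line 1.2 JQ1 replicate 1. In the covariate fit the values listed as turned were the averaged effect of mt-Rnr1 (-0.0885), mt-Rnr2 (-0.0226) and mt-Cytb (-0.00761), and the line 1.2 effect of mt-Rnr1 (-0.25), mt-Rnr2 (-0.29), Ndufa12 (-0.0302) and Cox6c (0.34). With 1 library left out, the line 1.1 effect of Gm42418 ran from -1.02 to 0.42 (highest without DMSO replicate 2) and the line 1.2 effect of mt-Rnr2 from -0.0236 (without JQ1 replicate 2) to 0.369. Depth limits precision at low levels: the SE of the averaged change was 0.12 for Ndufaf3, at a mean of 6.39 CPM, and 0.03 for Atp5b, at 1860 CPM.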

Other observations

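Genes of pathways next to the respiratory chain were read in the same fits. A list of 19 genes covered the tricarboxylic acid cycle, pyruvate dehydrogenase and pyruvate carboxylase. Of these, 10 rose and 3 fell averaged over the lines, against 30.7% of all genes tested called higher and 31.3% lower. Their median log2 change was 0.09. Pcx, pyruvate carboxylase, rose by 1.13, with 29.6 and 29.4 CPM with JQ1 and 14.2 and 14.1 CPM with DMSO in line 1.2, and 29.2 and 27.9 CPM with JQ1 and 10.5 and 14.8 CPM with DMSO in line 1.1. Ogdh and Dlst, subunits of the oxoglutarate dehydrogenase complex, rose by 0.36 and 0.30, and Pdha1 of pyruvate dehydrogenase by 0.34. Of 16 genes for cytochrome c, cytochrome c1 and coenzyme Q synthesis, 6 rose (37.5%) and 3 fell (18.8%), against the same shares. Coq10b and Coq10a, which encode coenzyme Q binding proteins, rose by 0.96 and 0.93, Coq9 rose by 0.35 and Coq7 fell by 0.33.

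Pseudogene-marked symbols, which were left out, held 0.00225 to 0.00284% of gene counts per library. Atp5l2-ps had 172 to 231 reads per library, while Atp5l itself had 0.91 CPM per kb of exon, the lowest level per length of the nuclear subunits tested. Ndufab1-ps had 33 to 76 reads. Where copies are nearly identical, reads can be split or lost in counting, and the values of Atp5l and Ndufab1 are uncertain to that extent.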
